A study of Mus musculus with 16 samples.

Results

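H3K4me1, the histone mark found at enhancers and beside promoters, was compared along mouse chromosome 13 between 3T3 fibroblasts and dendritic cells, with the chromosome cut at 60 Mb (mm9 position 60000000). The members are all 8976 summits of the mark listed on chromosome 13, out of 161656 in the 2 lists. Of these, 4974 came from 3T3 cells, of 81860 in that list, and 4002 from dendritic cells, of 79796. The stretch up to the cut, called the proximal part because mouse chromosomes are numbered from the centromere, held 5430 of them, and the stretch beyond it, the distal part, held 3546. The cut was chosen from the ratio of 3T3 to dendritic cell scores in 5 Mb windows of these same lists. Scores, summit numbers and shares that compare the cell types on either side of it are therefore a description, and none was tested.

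The study mapped H3K4me1, H3K27ac, acetylated H4 and input DNA by ChIP-seq, in 16 samples, to find candidate enhancers before and after stimulation. The 3T3 sample is an established fibroblast line grown under standard conditions, unstimulated. The dendritic cells were unstimulated as well and were grown from bone marrow progenitors infected with a retrovirus that expresses a hairpin to the histone demethylase JmjD2d, selected with histidinol and differentiated in GM-CSF, at first with SCF. Both were precipitated with the anti-H3K4me1 clone CMA302. Each cell type is 1 library, and differences due to cell type and to the hairpin cannot be told apart. The cell type field of the 3T3 sample names dendritic cells, against its title, description, growth protocol and list header. It was treated as 3T3. The identity of the cells was not checked at marker genes, because the gene table at hand is of another build (GRCm38).

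H3K4me1 is written by enzymes of the MLL family and marks enhancers that are active or ready for use, so its sites differ strongly between cell types. Dendritic cells rely on enhancers bound by myeloid factors such as PU.1 and IRF4, and fibroblasts on those bound by AP-1 and TEAD factors. Each summit in the lists is 1 position, where the pile of sequenced fragments peaks, with a score taken here as the height of that pile. The lists record no scaling, so a score is compared within its list, or as a ratio between lists. The median ratio of all pairs is set to 0 on the log2 scale. A pair is a 3T3 and a dendritic cell summit that are each other's nearest within 1000 bp. Chromosome 13 carries genes of both lineages. In the order of GRCm38 they include Gli3, Inhba, Irf4, Foxf2, Foxc1, Bmp6, Edn1, Id4, Syk, Nfil3, Ror2, Msx2, Tgfbi, Ptch1, Nr2f1, Mef2c, Vcan, Pik3r1, Cd180, Itga2, Itga1 and Fgf10. Irf4 encodes a regulator of dendritic cell development, Syk a kinase of immune receptors, Vcan a matrix proteoglycan, and Itga1 and Itga2 subunits of collagen receptors. Their positions in mm9 were not looked up, and no summit below is assigned to a gene.

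Summits of both cell types were denser in the proximal part, and the difference was larger for 3T3. The proximal part held 3149 3T3 and 2281 dendritic cell summits, and the distal part held 1825 3T3 and 1721 dendritic cell summits. From the first summit to the cut, and from the cut to the last summit, this is 55.6 3T3 summits per Mb in the proximal part against 30.3 in the distal part. For dendritic cells it is 40.3 per Mb against 28.6. The proximal part thus held 3.85% of the 3T3 list (exact 95% interval 3.72 to 3.98) and 2.86% of the dendritic cell list (2.74 to 2.98). The distal part held 2.23% (2.13 to 2.33) and 2.16% (2.06 to 2.26). Relative to the whole lists, the log2 ratio of 3T3 to dendritic cell summit number was 0.43 (0.35 to 0.51) in the proximal part and 0.05 (-0.05 to 0.14) in the distal part. The excess of 3T3 summits on chromosome 13 therefore lay before the cut, while beyond it the interval of the ratio spans the value of equal shares. Without the window from 65 to 70 Mb the distal ratio was 0.10 (0.0020 to 0.20). These intervals, like all below, cover counting error only and take summits as independent. The spread between libraries is unknown.

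**Figure D1:**
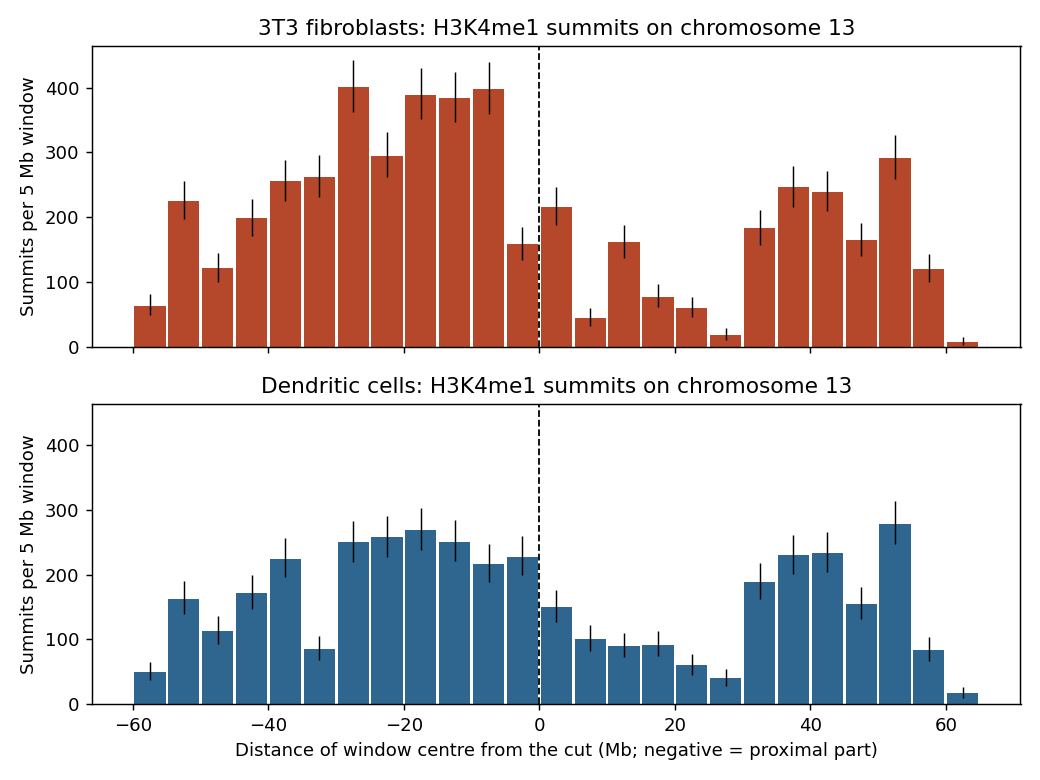
Number of H3K4me1 summits in 5 Mb windows of chromosome 13 in 3T3 cells (top) and dendritic cells (bottom), against the distance of the window centre from the 60 Mb cut in Mb; bars are counts, lines exact Poisson 95% intervals. In the proximal part 3T3 windows reach 401 summits and dendritic cell windows 269, whereas in the distal part the highest counts are 291 and 279.

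At sites marked in both cell types, the 3T3 score was relatively higher before the cut and not beyond it. The 794 pairs of the proximal part had a median log2 score ratio of 0.34 (interval of the median over pairs 0.27 to 0.41), a 1.27-fold higher 3T3 score. The 448 pairs of the distal part had a median of -0.07 (-0.17 to 0.0065), or 0.951-fold. The median over the rest of the genome was -0.01 (-0.02 to 0.0033) over 23136 pairs. In the proximal part 528 pairs (66.5%, 63.1 to 69.8) lay above the genome's median ratio, against 204 pairs in the distal part (45.5%, 40.9 to 50.3). No pair straddled the cut.

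The shift in the proximal part covered most of the range of the ratios and was absent only at its lowest end. The 25th percentile of the log2 ratio was -0.23 in the proximal part, -0.52 in the distal part and -0.54 in the rest of the genome. A score at least 2-fold higher in 3T3 was found at 181 proximal pairs (22.8%, 19.9 to 25.9) and at 38 distal pairs (8.48%, 6.07 to 11.5). Over all pairs of the genome that share was 11.9%. One at least 2-fold higher in dendritic cells was found at 80 proximal pairs (10.1%, 8.07 to 12.4) and 48 distal pairs (10.7%, 8.01 to 14.0), against 11.6% over all pairs. So the share of pairs much higher in 3T3 differed between the parts, and the share much higher in dendritic cells lay near the genome's in each. The 95th percentile of the log2 ratio was 2.01 in the proximal part, 1.27 in the distal part and 1.47 in the rest of the genome. The 5th percentile was close in all of them, at -1.40, -1.35 and -1.44. Across pairs, Spearman's rho between the 3T3 and the dendritic cell scores was 0.16 in the proximal part, 0.29 in the distal part and 0.25 elsewhere. These rho values describe pairs of the same libraries, which are not replicates.

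**Figure D2:**
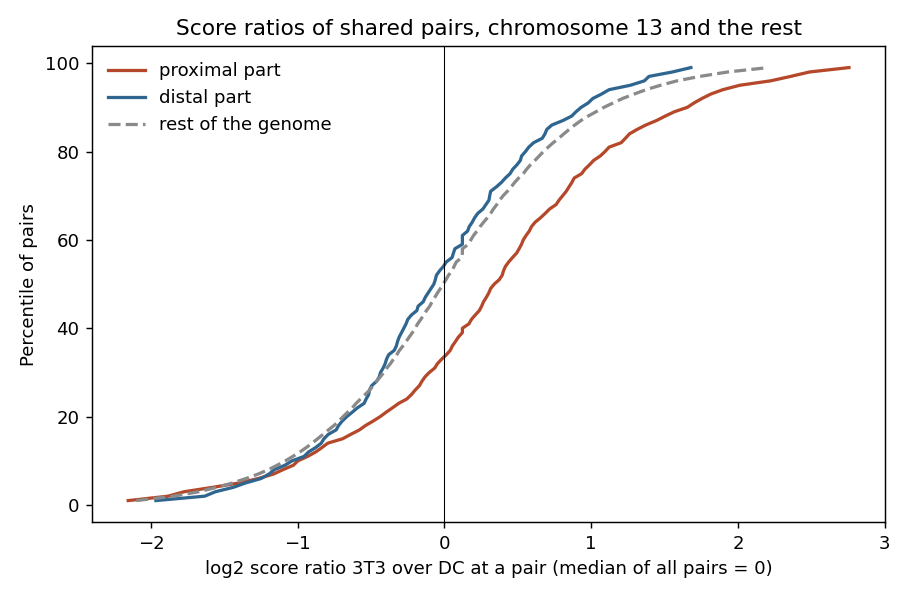
Percentile of shared pairs (vertical axis, 1 to 99%) against the log2 ratio of the 3T3 to the dendritic cell score (horizontal axis, median of all pairs at 0), for the proximal part (794 pairs), the distal part (448 pairs) and the rest of the genome (23136 pairs). The proximal curve runs to the right of the others over most of its length, with a 25th percentile of -0.23 against -0.52 and a median of 0.34 against -0.07 in the distal part, and joins them at the lower end.

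The separation of the parts was present whether the paired summits lay close together or further apart. Pairs up to 100 bp apart had a median of 0.43 (0.30 to 0.52) in the proximal part and -0.08 (-0.31 to 0.06) in the distal part. Pairs over 100 and up to 400 bp apart had lower proximal values, with a median of 0.25 (0.06 to 0.40) against -0.04 (-0.16 to 0.12). Pairs over 400 and up to 1000 bp apart had 0.35 (0.26 to 0.49) and -0.10 (-0.25 to 0.05). All are subsets of the pairs whose ratios chose the cut, so the separation in each is a description only.

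Within its own list, 3T3 stood higher before the cut than beyond it, and so, by less, did dendritic cells. The median 3T3 score was 35 (34 to 36) in the proximal part and 31 (30 to 32) in the distal part, where the whole list has 33. For dendritic cells it was 36 (35 to 37) in the proximal part and 34 (33 to 35) in the distal part, and the whole list has 36. The clearest contrast was in shared 3T3 summits, with a median of 44 (41 to 46) in the proximal part, 32 (30 to 34) in the distal part and 36 over all shared 3T3 summits. Shared dendritic cell summits hardly differed, with medians of 39 (37 to 40) and 40 (37 to 41). Summits found in 3T3 alone had medians of 33 (32 to 33) in the proximal part and 31 (30 to 32) in the distal part, a smaller step in the median than at shared sites. The choice of the cut favours a larger step at shared sites, because scores of paired summits make up the ratios that chose it.

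High summits showed the contrast most. Of the proximal 3T3 summits, 487 (15.5%, 14.2 to 16.8) had at least the score of 75 that limits the top decile of that list. Of the distal ones, 121 (6.63%, 5.53 to 7.87) did. For dendritic cells, with a limit of 79, the numbers were 208 (9.12%, 7.97 to 10.4) and 117 (6.80%, 5.65 to 8.09). The 3T3 contrast was present at shared and at 3T3-only summits. The values at shared summits draw on the paired scores that chose the cut. Of the shared ones, 23.0% (20.2 to 26.1) of the proximal and 6.90% (4.74 to 9.66) of the distal summits reached the 3T3 limit. Of the 3T3-only ones, 12.9% (11.6 to 14.3) and 6.54% (5.29 to 7.98) did. Taking the same top share of each list, the log2 ratio of 3T3 to dendritic cell summit number in the proximal part was 0.57 (0.46 to 0.67) for the top 50%, 0.82 (0.67 to 0.98) for the top 25% and 1.19 (0.95 to 1.43) for the top 10%. It stood at 1.41 (1.08 to 1.75) for the top 5%, with 284 3T3 and 104 dendritic cell summits. In the distal part it stayed between 0.01 and 0.10 at all of these, with 43 3T3 and 40 dendritic cell summits in the top 5%. The proximal excess of 3T3 summits was thus larger among high summits than over the whole list. The interval of the distal ratio spanned 0 at each of these heights.

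**Figure D3:**
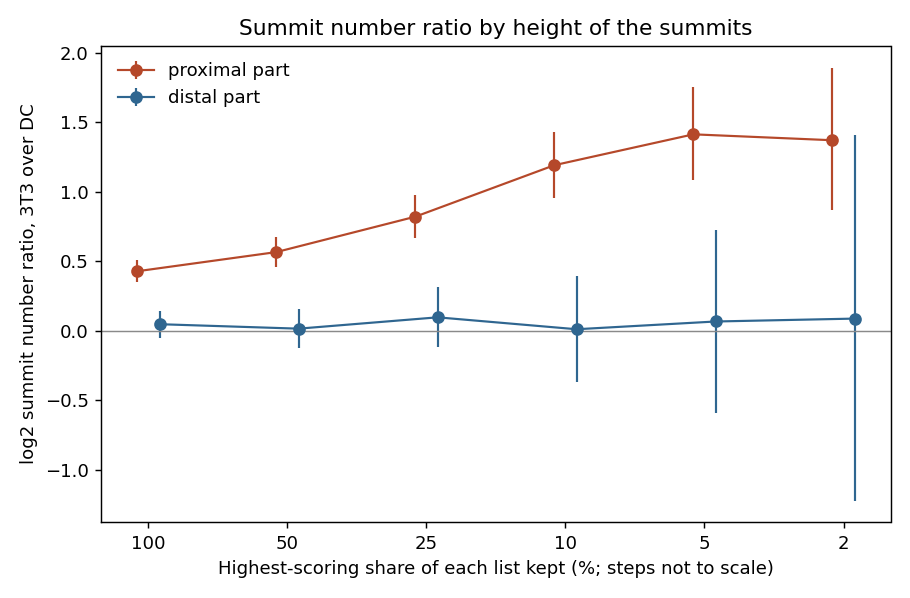
log2 ratio of 3T3 to dendritic cell summit number (vertical axis, relative to the lists) when the highest-scoring 100, 50, 25, 10, 5 or 2% of each list is kept (horizontal axis, not to scale), in the proximal and the distal part; lines are exact conditional 95% intervals. The proximal ratio climbs from 0.43 for all summits to 1.41 for the top 5%, and the distal ratio stays near 0 with widening intervals.

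The high 3T3 summits were spread over the proximal part and most numerous between 30 and 55 Mb. In 11 of its 12 windows of 5 Mb, more 3T3 than dendritic cell summits belonged to the top 5%. The exception was the window from 55000001 to 60000000, with 13 3T3 and 14 dendritic cell summits. The largest number was 54 3T3 summits, against 18 of dendritic cells, from 50000001 to 55000000, followed by 49 against 18 from 45000001 to 50000000 and 46 against 8 from 30000001 to 35000000. Leaving out any 1 proximal window kept the ratio of the top 5% between 1.27 and 1.55. In the distal part 4 of 13 windows held more high 3T3 summits, 5 more high dendritic cell summits, and 4 equal numbers. The fullest there was the first beyond the cut, with 13 3T3 and 3 dendritic cell summits. No count of such windows over the genome is at hand.

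Cell-type-only summits, those with no summit of the other list within 1000 bp, separated the parts in dendritic cells but not in 3T3. Of the dendritic cell summits, 1484 (65.1%, 63.1 to 67.0) were dendritic-cell-only in the proximal part and 1272 (73.9%, 71.8 to 76.0) in the distal part, with 69.4% over the whole list. Of the 3T3 summits, 2355 (74.8%, 73.2 to 76.3) were 3T3-only in the proximal part and 1376 (75.4%, 73.4 to 77.4) in the distal part, with 70.2% over the whole list. A dendritic cell summit thus more often had a 3T3 neighbour before the cut, where 3T3 summits were also denser, and the part that density plays in this share was not tested. The 3T3 share lay above that of the whole list on either side. At a longer range the order was the same for dendritic cells, where 11.8% (10.5 to 13.2) of the proximal and 21.3% (19.4 to 23.3) of the distal summits had no 3T3 summit within 20 kb. For 3T3 summits, 28.1% (26.6 to 29.7) of the proximal and 32.1% (29.9 to 34.3) of the distal ones had no dendritic cell summit within 20 kb. Over the whole lists these shares were 15.62% for dendritic cells and 25.02% for 3T3. The dendritic cell share thus lay below that of its list in the proximal part and above it in the distal part. The 3T3 share lay above that of its list in each part. At this range it too was lower in the proximal part, by less than in dendritic cells.

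The windows showed a step in score, the measure that chose the cut, and a patchwork in number. All 11 proximal windows with at least 20 pairs had a median log2 score ratio above 0, between 0.08 and 0.55, and for 6 of them the interval over pairs excluded 0. The window left out, from 1 to 5000000, had 19 pairs and a median of 0.30. All 10 distal windows with at least 20 pairs lay below 0, between -0.33 and -0.0054, and for 1 of them the interval excluded 0. With windows of 2.5 Mb, 3 of 11 distal windows lay above 0. Over the genome 47.5% of the 5 Mb windows with at least 20 pairs lie above 0. This is the measure that chose the cut, so nothing is read from that share.

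The proximal windows with the highest score ratio ran from 50000001 to 55000000 (0.55, 0.36 to 0.78, 92 pairs), from 45000001 to 50000000 (0.52, 0.26 to 0.76, 85 pairs) and from 30000001 to 35000000 (0.50, 0.28 to 0.83, 97 pairs). The lowest were those from 15000001 to 20000000 (0.08, -0.18 to 0.53, 45 pairs), from 55000001 to 60000000 (0.08, -0.36 to 0.39, 71 pairs) and from 10000001 to 15000000 (0.15, -0.18 to 0.51, 28 pairs). The shift was thus uneven within the proximal part, and the window next to the cut was among the lowest. In the distal part the ratio was lowest from 95000001 to 100000000 (-0.33, -0.52 to -0.00087, 58 pairs), from 105000001 to 110000000 (-0.17, -0.44 to 0.07, 44 pairs) and from 115000001 to 120000000 (-0.15, -0.44 to 0.31, 20 pairs). It was highest from 65000001 to 70000000 (-0.0054, 28 pairs), from 110000001 to 115000000 (-0.02, 71 pairs) and from 60000001 to 65000000 (-0.04, 46 pairs). Distal windows with fewer than 20 pairs were not counted, among them the window from 85000001 to 90000000, where 8 pairs had a median of 0.52 (-0.73 to 1.68).

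**Figure D4:**
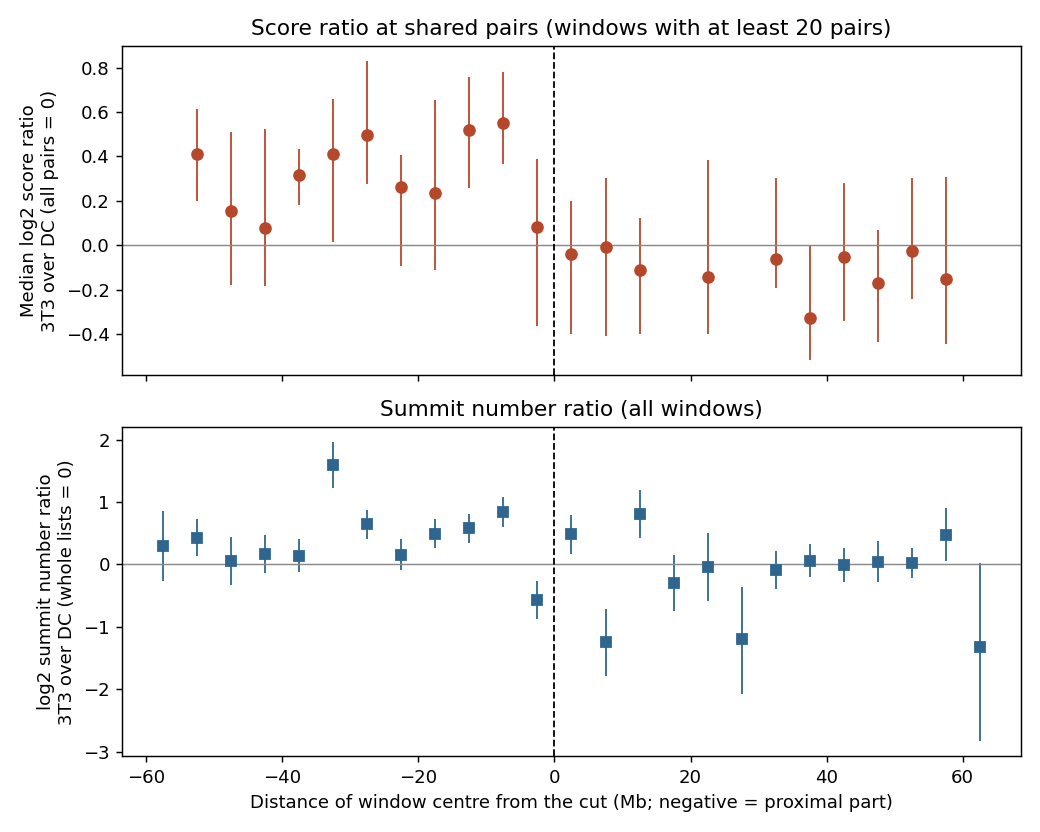
Median log2 score ratio at shared pairs (top, windows with at least 20 pairs) and log2 ratio of summit number (bottom, all windows), 3T3 over dendritic cells, against the distance of the window centre from the cut in Mb; lines are 95% intervals over pairs or counts. Score ratios lie between 0.08 and 0.55 in the proximal part and between -0.33 and -0.0054 in the distal part, whereas number ratios run from -0.57 to 1.59 in the proximal part and from -1.32 to 0.80 in the distal part.

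Summit numbers followed the cut less closely than scores, an order that the choice of the cut from score ratios favours. The number ratio was above 0 in 11 of 12 proximal and in 6 of 13 distal windows. Its interval lay wholly above 0 in 6 proximal and 3 distal windows, and wholly below 0 in 1 proximal and 2 distal windows. The highest ratio, 1.59 (1.23 to 1.96), was found from 25000001 to 30000000, with 262 3T3 summits and 85 of dendritic cells. The proximal exception, at -0.57 (-0.87 to -0.27), was again the window from 55000001 to 60000000, with 158 3T3 and 228 dendritic cell summits. Distal windows varied in both directions. From 70000001 to 75000000 there were 161 3T3 and 90 dendritic cell summits (0.80, 0.42 to 1.19), and from 65000001 to 70000000 there were 44 and 101 (-1.24, -1.78 to -0.71). From 90000001 to 115000000, by contrast, all 5 windows had number ratios between -0.08 and 0.06. Across the 21 windows with at least 20 pairs, number and score ratios had a Spearman's rho of 0.50. It was 0.72 over the 11 proximal and -0.37 over the 10 distal windows. Windows share the same libraries, so these values only describe them. No count over the genome's windows is at hand for the number ratio.

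The level of 3T3 scores by window differed between the parts as well. The median 3T3 score was above that of the whole list in 9 of 12 proximal windows and in 0 of the 12 distal windows with at least 50 summits of both lists together. For dendritic cells it was above that of the whole list in 5 of 12 proximal and 3 of 12 distal windows. Among 3T3-only summits alone, which enter no pair, the window median exceeded that of the list (32) in 6 of 12 proximal windows and in 0 of 10 distal windows with at least 20 such summits. It equalled that of the list in 2 proximal windows and 1 distal window. Among dendritic-cell-only summits the window median exceeded that of the list (34) in 4 of 12 proximal and 3 of 12 distal windows. These medians share the libraries with the windowed ratios that chose the cut. Those over all summits also include the paired scores behind these ratios. No such counts over the genome's windows are at hand, so whether these numbers are unusual was not tested.

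Near the cut the change was not sharp. The last 3T3 summits before it lay at 59984100, 59989296 and 59994529, with scores of 22, 113 and 20. The first beyond it lay at 60012382, 60030951 and 60038270, with scores of 45, 29 and 26. The last dendritic cell summits before it were at 59976627, 59981721 and 59989315, with scores of 63, 26 and 60. Beyond it one followed at 60007009 (score 23) and the next only at 60721725 (44) and 60725234 (22). So a stretch of about 0.7 Mb just beyond the cut was marked in 3T3 and nearly free of dendritic cell summits. There, 70 3T3-only summits ran from 60012382 to 60711901 without a dendritic-cell-only or a shared summit between them. The last 3 pairs before the cut had log2 score ratios of 0.59, 1.22 and 1.04, and the first 3 beyond it -0.93, 0.57 and 0.46. In windows of 1 Mb, the score ratio was 0.76 (0.07 to 1.46) from 52000001 to 53000000 (31 pairs) and 0.73 (0.12 to 0.89) from 54000001 to 55000000 (18 pairs). It was 0.18 (-0.48 to 0.59) from 55000001 to 56000000 (34 pairs) and -0.05 (-1.20 to 0.88) from 56000001 to 57000000 (11 pairs). Next came -0.05 (-1.04 to 0.41) from 58000001 to 59000000 (14 pairs) and 0.43 (-1.05 to 1.10) from 59000001 to 60000000 (12 pairs). Beyond the cut it was -0.03 (-0.40 to 0.26) from 63000001 to 64000000 (31 pairs) and -0.30 (-0.52 to 0.27) from 64000001 to 65000000 (12 pairs). From 55000001 on, each of these intervals spanned 0, so the order of these windows is not resolved. When the cut was moved in steps of 1 Mb between 20 and 100 Mb, the difference in median ratio between the parts was largest at 55 Mb (0.44), against 0.41 at 60 Mb. The difference in number ratio was largest at 55 Mb too (0.52, against 0.38 at 60 Mb). The largest step in these lists thus lay about 5 Mb before the cut.

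Empty stretches were more common beyond the cut. In 3T3, 6 gaps of over 500 kb between neighbouring summits covered 6.56 Mb of the proximal part, and 18 covered 16.6 Mb of the distal part. In dendritic cells the numbers were 14 gaps over 15.04 Mb and 22 gaps over 20.02 Mb. Long gaps were thus fewer before the cut in both lists, and the difference was larger in 3T3 than in dendritic cells. The longest proximal gap of dendritic cells, 2.51 Mb from 25883205 to 28393245, was filled with a run of 95 3T3-only summits from 25900924 to 28390107, with a median score of 28. The longest 3T3 gap, 3.19 Mb from 85768549 to 88960562, lay in the distal part. Between neighbouring summits the median distance in 3T3 was 8263 bp in the proximal part and 10352 bp in the distal part, against 8082 and 9685 bp in dendritic cells.

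In windows of 100 kb, dendritic cell summits seldom stood alone before the cut. Of 499 proximal windows with any summit, 126 (25.3%, 21.5 to 29.3) held 3T3 summits alone and 31 (6.21%, 4.26 to 8.70) dendritic cell summits alone. Of 444 distal windows, 99 (22.3%, 18.5 to 26.5) held 3T3 summits alone and 57 (12.8%, 9.87 to 16.3) dendritic cell summits alone. Over the genome, 21.4% of the windows with any summit held 3T3 summits alone and 11.5% dendritic cell summits alone. The distal shares thus lay near those of the genome, and the proximal share of dendritic cell summits alone lay below. Windows with at least 10 3T3 summits but none of dendritic cells numbered 15 in the proximal and 6 in the distal part, where 1.49% of windows over the genome are of this kind. The opposite was found in 3 proximal and 2 distal windows, with 0.486% over the genome.

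The windows of 100 kb with the largest excess of each list were one-sided blocks of moderate height. In the proximal part, 16 3T3 summits (exact Poisson interval 9.15 to 26.0) with a median score of 38 and no dendritic cell summit lay from 15600001 to 15700000. Another 16 3T3 summits with a median of 36.5, and 1 dendritic cell summit, lay from 43000001 to 43100000. Dendritic cell blocks were close by on the same scale, with 16 summits (median 42) and 1 3T3 summit from 44500001 to 44600000, and 12 summits (median 48) and no 3T3 summit from 19800001 to 19900000. Blocks of either cell type thus occurred before the cut, within a few Mb of each other. In the distal part, 15 3T3 summits (median 46) from 60400001 to 60500000 and 14 (median 31) from 60100001 to 60200000 had no dendritic cell summit beside them. For dendritic cells there were 15 summits (median 40) and no 3T3 summit from 76700001 to 76800000, and 13 summits (median 38) with 2 of 3T3 from 96600001 to 96700000. None of the summits in these 8 windows was shared.

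The longest uninterrupted runs, series of cell-type-only summits not interrupted by a summit found in the other cell type alone, were those of 3T3 on either side. Shared summits were allowed within a run. The longest 3T3 runs of the proximal part held 95 summits, over the dendritic cell gap named above, and 81 from 47290520 to 48497791 with a median score of 41. In the distal part they held 77 summits from 71243523 to 72763674 (median 31) and the 70 just beyond the cut (median 36). Runs of 20 or more 3T3-only summits numbered 16 in the proximal part, with 569 summits, and 8 in the distal part, with 315. Dendritic cell runs of that length numbered 3 in each part. The longest held 34 summits from 19809234 to 20203588 (median 44.5) in the proximal part and 31 from 76533093 to 77145079 (median 37) in the distal part. No count of such runs over the whole lists is at hand, so whether these numbers are unusual was not tested. Over the genome, windows of 100 kb with at least 10 summits of 1 list alone were also more often those of 3T3 (1.49% against 0.486%).

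The 3 highest summits of each list in the proximal part all lay between 51 and 53 Mb. The highest of 3T3 lay at 52941869 with a score of 363, rank 5 in its whole list. The highest of dendritic cells lay 25 bp away at 52941894, with a score of 233, rank 17. The same strong site was therefore the summit of the chromosome in both cell types. The second 3T3 summit of the proximal part, at 51428481, scored 333, whereas the dendritic cell summit 3 bp away scored 32. The third there, at 51411806, scored 246 against 86 at 51411787 in dendritic cells. These are sites where both cell types were called at nearly the same base with very unequal heights. The dendritic cell summit at 52915073 scored 210, with a 3T3 summit of 228 at a distance of 17 bp, and that at 52673838 scored 203, with a 3T3 summit of 40 at 974 bp. The distal part had lower maxima in each list. Its highest 3T3 summit, at 71512972 with a score of 260 (rank 19 in the whole list, above the third proximal one), had no dendritic cell summit within 400 kb, and its highest dendritic cell summit, at 95070606, scored 200, with a 3T3 summit of 59 at 1614 bp. The highest shared distal site paired a 3T3 summit of 173 at 63353409 with a dendritic cell summit of 157 at 63353630. Input DNA was not analysed here, so whether such high sites also stand out in input was not tested.

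The pairs with the most unequal scores reached further in the proximal part. The 3 highest ratios there were 3.72 at 53129884 (scores of 230 in 3T3 and 19 in dendritic cells, 945 bp apart), 3.50 at 51428481 (333 and 32) and 3.50 at 52861970 (228 and 22, 99 bp apart). All of these lay within 2 Mb of each other. The lowest were -2.86 at 55631175 (18 and 142, 10 bp apart), -2.63 at 46046236 (18 and 121) and -2.50 at 49203649 (19 and 117). The proximal part thus held strongly unequal sites in both directions. In the distal part the highest ratios were 2.25 at 103651103 (83 and 19), 1.96 at 113206297 (86 and 24) and 1.94 at 108481933 (81 and 23). The lowest were -2.12 at 102428167 (18 and 85), -2.00 at 102679213 (20 and 87) and -1.99 at 99454421 (22 and 95). Positions are those of the 3T3 summit. With fewer pairs in the distal part its extremes have less room, and the ranges were not tested against each other.

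Set beside the rest of the genome, the step in score was the largest of its kind, as follows from its choice. The same cut at 60 Mb was placed on each of the 19 chromosomes of over 80 Mb. The difference in median log2 score ratio, first 60 Mb minus the rest, was 0.41 on chromosome 13. The next in size were -0.20 on chromosome 2, -0.15 on chromosome 17 and -0.13 on chromosome 8. With the best single cut of each chromosome between 5 Mb windows, chromosome 13 gave 0.44 at 55 Mb, and chromosome 2 gave -0.28 at 30 Mb. In summit number the chromosome did not stand first. Its difference of 0.38 came after -0.49 on chromosome 7 and -0.39 on chromosome 2. In the dendritic-cell-only share its difference of -8.85 percentage points was the largest, followed by 8.33 on chromosome 10, and in the 3T3-only share its difference of -0.61 was the smallest of the 19.

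The proximal part resembled chromosome 8, whose score ratio was raised on either side of the cut. On the first 60 Mb of chromosome 8 the median log2 score ratio was 0.38 (0.29 to 0.46) and the number ratio 0.67 (0.57 to 0.78). Beyond 60 Mb they were 0.51 (0.45 to 0.57) and 0.51 (0.44 to 0.58). The values of the proximal part of chromosome 13, 0.34 and 0.43, were second to those of the first 60 Mb of chromosome 8 among the 19 chromosomes. Chromosome 8 thus kept a raised ratio beyond 60 Mb, and chromosome 13 had a ratio of -0.07 there. With 1 library per cell type and no input DNA analysed, the amount of DNA and the level of the mark cannot be told apart in these ratios.

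**Figure D5:**
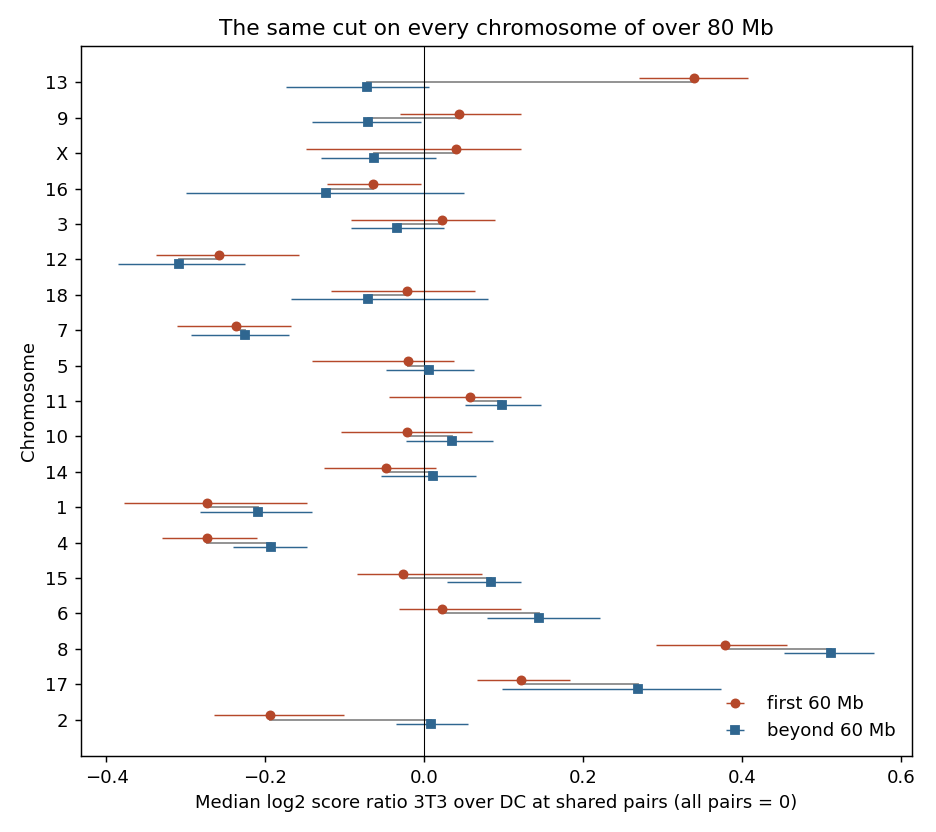
Median log2 score ratio of 3T3 over dendritic cells at shared pairs (horizontal axis, all pairs at 0) in the first 60 Mb (circles) and beyond 60 Mb (squares) of the 19 chromosomes of over 80 Mb (vertical axis), ordered by the difference; lines are 95% intervals over pairs. Chromosome 13 has 0.34 and -0.07, the widest separation, and chromosome 8 has 0.38 and 0.51.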

How the data were processed

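Per the labels' protocols, DNA from formaldehyde-fixed, sonicated nuclei was precipitated, sheared to about 300 bp, amplified for 18 PCR cycles and read as single 36 bp reads. The submitters' processing notes name Bowtie, MACS 1.4 and mm9. Per the file headers, MACS ran at a p threshold of 1e-04 and a 150 bp shift, with neither a fragment model nor a local background. The authors deposited summit positions with a signal that MACS computed from their aligned reads, under a header that does not name it. It was read as pile height and called the score, and it is a whole number of at least 13 in both lists. Use of input at that step: not given in the sources used here.

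Summits were assigned to the parts by position, and pairs by their dendritic cell summit. Ratios are 3T3 over dendritic cells. Shares have Clopper-Pearson and counts Poisson 95% intervals. Number ratios have exact conditional binomial intervals, and medians have binomial rank intervals. The depth is unknown, since neither list records its reads. With 1 library per cell type there is no p-value. The cut, the measures and the lists were chosen with earlier results of these data known. The named windows, summits and pairs are the extremes of each part by a fixed rule: the 3 highest and 3 lowest score ratios, the 3 highest summits and the 2 largest excesses in 100 kb of each list. Pairing and medians were tested on simulated lists. Alternatives were other distances, score minima, cuts, merging, comparison lists, windows, and each 5 Mb window left out. The other 14 samples were not analysed. Gene counts, markers and sequences need an mm9 annotation and were not computed. Computation ran in Python 3.11.15 with pandas 2.3.3, numpy 2.4.6 and scipy 1.17.1, and plots in matplotlib 3.10.9.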

Additional observations from a re-analysis of the deposited data

How the results depend on the processing

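Of 174 values under other settings, 151 stayed within the interval of the value reported, 23 moved outside it and 0 changed direction among ratios whose interval excluded 0. Most of the 174 left out a single 5 Mb window, share most summits with the value reported, and stayed within its interval. All 23 that moved came from the other settings. The cell-type-only shares moved with the distance that counts as shared. At 250, 500 and 2000 bp the 3T3-only share was 85.4, 81.2 and 66.4% in the proximal part and 85.5, 81.6 and 66.4% in the distal part. The dendritic-cell-only share was 79.8, 74.1 and 52.9% in the proximal part and 84.6, 80.5 and 64.8% in the distal part. With scores of at least 30, the 3T3-only shares were 78.0 and 80.4% (proximal, distal) and the dendritic-cell-only shares 70.2 and 81.2%. With the 39898 top-scoring summits of each list they were 80.4 and 80.9%, and 71.5 and 81.3%. The dendritic-cell-only share was thus lower in the proximal part under each of these settings. The proximal number ratio moved to 0.52 with scores of at least 30, 0.54 with lists cut to the same length and, in a setting added after seeing the data, 1.48 with scores of at least 100. The score ratios of both parts stayed within their intervals under every setting run, cuts at 55 and 65 Mb included. The count of windows was less firm, since the distal part had windows above 0 under other settings: 3 of 11 with 2.5 Mb windows, 1 of 6 with 10 Mb windows and 1 of 11 with at least 10 pairs. The proximal counts were 17 of 19, 6 of 6 and 12 of 12. Leaving out each 5 Mb window in turn, also added after seeing the data, kept the proximal number ratio between 0.36 and 0.51 and the proximal score ratio between 0.31 and 0.37. The distal number ratio ranged from -0.01 to 0.10, and without the window from 65 to 70 Mb, at 0.10 (0.0020 to 0.20), its interval no longer spanned 0. The distal score ratio ranged from -0.10 to -0.06, and its interval lay below 0 without the window from 75 to 80 Mb (-0.18 to -0.00087) or from 85 to 90 Mb (-0.18 to -0.0035). No paired analysis was possible because each cell type has 1 library, and for the same reason leaving out a library was not possible. Where a list has no summit, the mark may be present below the caller's threshold at that unknown depth.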
